A study of Mus musculus with 12 samples.

Results

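The transcripts of 5 genes were followed in CT26 cells, a mouse colon carcinoma cell line. They encode the inducible catalytic subunits of the immunoproteasome (PSMB8, PSMB9 and PSMB10) and the alpha and beta subunits of the PA28 proteasome activator (PSME1 and PSME2). The genes were found by their symbols among 23636 symbols, and all 5 were measured in every library. CT26 cells received no treatment, recombinant CX3CL1 at 2 µg/ml, IFN-γ at 100 ng/ml, or both cytokines at these doses (CX3CL1+IFN-γ), for 8 hours. The labels and the paper's figure legend name no TNF-α and no order of addition. The main text of the paper instead describes IFN-γ and TNF-α given before CX3CL1. Each of the 4 groups held 3 libraries labelled as biological replicates, 12 libraries in all, and the labels do not say what was separate between replicates, so p-values measure the spread between these libraries. CX3CL1, also called fractalkine, is the chemokine ligand of the receptor CX3CR1, and IFN-γ is a cytokine of activated T cells and NK cells. All results come from this 1 cell line in culture and from RNA, not from protein or proteasome activity.

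The proteasome is a barrel of stacked protein rings that cuts proteins into peptides, and its inner rings carry 3 kinds of catalytic subunit. In most cells these are PSMB5, PSMB6 and PSMB7. When a cell meets IFN-γ, it makes PSMB8 (LMP7), PSMB9 (LMP2) and PSMB10 (MECL-1), which take the places of PSMB5, PSMB6 and PSMB7 in newly built particles and change which peptides are cut for display on MHC class I. PA28 is a ring of PSME1 and PSME2 that docks on the end of the barrel and opens it, and it too is known as an IFN-γ response.

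The 5 genes lie at 3 places in the genome (GENCODE vM21, GRCm38). PSMB9 (chr17:34181987-34187764, minus strand) and PSMB8 (chr17:34197721-34201454, plus strand) lie in the MHC region, with TAP1 (chr17:34187553-34197225, plus strand) between them and TAP2 (chr17:34203527-34216321, plus strand) beyond PSMB8. TAP1 and TAP2 encode the peptide transporter of the endoplasmic reticulum, and the annotated 5′ ends of PSMB9 and TAP1 overlap on opposite strands. PSME1 (chr14:55578123-55581529, plus strand) and PSME2 (chr14:55587441-55591113, minus strand) are neighbours, and PSMB10 (chr8:105935735-105938444, minus strand) stands alone. Of the 12 other protein-coding genes within 20 kb of a member, 10 were tested, and 4 of them were called higher after IFN-γ than without treatment: TAP1, TAP2, RNF31, which starts 595 bases from PSME2, and IRF9, 12458 bases from PSME2. Of all genes tested, 5.91% were called higher in this comparison. RNF31, a subunit of a ubiquitin ligase, had a log2 fold change of 1.17 and the transcription factor IRF9 of 1.12. None of the 4 tested neighbours of PSMB10 was called.

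The start regions of the members were searched on both strands for 3 short motifs, because IFN-γ acts through transcription factors that bind such sites. The windows were those of RefSeq on GRCm38.p6, 250 bases before the annotated start and 50 after it, 300 bases in all. The motifs were an IRF-type site (GAAANNGAA), a GAS site (TTCNNNGAA) and an NF-kB site. Over 27025 genes, 8.57% of windows held the IRF-type letters, 8.47% the GAS letters and 8.18% the NF-kB letters. Windows were found for 5 of the 5 members, and 2 members held a match, shown here with the motif in capitals and 10 bases on each side. The stretch of PSMB8 is chr17:34198088-34198116 on the plus strand, with the GAS match starting at base -97 from the RefSeq start. The stretch of PSME1 is chr14:55578494-55578522 on the plus strand, with an IRF-type match, read on the opposite strand, starting at base 11 after the start. GENCODE counts both stretches as part of a 5′ UTR.
PSMB8: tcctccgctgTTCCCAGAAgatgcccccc
PSME1: gagctgtgctTTCGCTTTCccttcccgct

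No match to any of the 3 motifs was found in the windows of PSMB9, PSMB10 and PSME2, nor in those of PSMB5 and PSMB6, the constitutive subunits with a window. These letters being missing from a window says nothing about binding elsewhere. For PSME2 and PSMB10 the part of the window that lies before every annotated transcript is shown, since both transcripts were higher after IFN-γ with no match there. It spans chr14:55591114-55591351 for PSME2 (238 bases) and chr8:105938445-105938642 for PSMB10 (198 bases), both read 5′ to 3′ on the minus strand.
PSME2: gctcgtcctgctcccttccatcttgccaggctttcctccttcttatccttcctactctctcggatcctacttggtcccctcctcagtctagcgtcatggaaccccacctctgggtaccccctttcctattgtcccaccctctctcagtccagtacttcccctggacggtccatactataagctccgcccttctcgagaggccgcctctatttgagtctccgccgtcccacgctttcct
PSMB10: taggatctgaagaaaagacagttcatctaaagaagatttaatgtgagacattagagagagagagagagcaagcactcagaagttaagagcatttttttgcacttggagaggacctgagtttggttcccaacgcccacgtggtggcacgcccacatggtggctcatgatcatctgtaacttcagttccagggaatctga

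Levels are given in TPM, a unit of transcript abundance that is per length and scaled to the same total in each library, so that genes can be compared with each other but read depth is not kept. Of 9 leukocyte markers, 7 were under 1 TPM in all 12 libraries, with CD3E at 0, and the summed level of the 9 ran from 8.78 to 27.6 TPM, of which the markers other than CD68 made up at most 2.31 TPM in a library. Of 8 epithelial and colon markers, 6 were under 1 TPM in all libraries, with EPCAM listed at 0. The other 2 were present in every library, KRT18 at 18.4 to 53.6 TPM and KRT20 at 6.44 to 16.8 TPM. The summed level of the mesenchymal genes VIM and FN1 was at least 2001 TPM. CX3CL1 replicate 2 stood apart from its group, with a median absolute log2 difference over genes of 0.266 and 0.262 from the other CX3CL1 libraries, which differed from each other by 0.141. The tests of the members that use the CX3CL1 group are therefore also given without it.

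IFN-γ raised all 5 transcripts, and the catalytic subunits rose more than PA28. PSMB9 was at 8.56, 4.49 and 8.22 TPM in untreated replicates 1, 2 and 3 (mean 7.09 ± 2.26, SD, n = 3) and at 225, 185 and 321 TPM after IFN-γ (244 ± 69.6). PSMB8 was at 26.7, 8.83 and 15.6 TPM without treatment (17.0 ± 9.02) and at 226, 193 and 257 TPM after IFN-γ (226 ± 32.1). For both genes every IFN-γ library lay far above every untreated library, and the untreated libraries of PSMB8 spread the most for their mean. PSMB10 had levels of 39.4, 41.3 and 43.5 TPM without treatment (41.4 ± 2.08) and of 274, 238 and 350 TPM after IFN-γ (287 ± 57.0). Its untreated libraries were the most alike of any member, and the groups again did not overlap. In these bulk libraries a larger share of responding cells and more RNA per cell cannot be told apart.

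The PA28 subunits started from higher levels. PSME1 was at 254, 245 and 323 TPM without treatment (274 ± 42.6, n = 3) and at 735, 868 and 1044 TPM after IFN-γ (882 ± 155). PSME2 had 243, 195 and 219 TPM without treatment (219 ± 23.7) and 810, 702 and 809 TPM after IFN-γ (773 ± 61.7). The groups did not overlap for either subunit, and the alpha and beta subunits stood at similar levels before and after.

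On the log2(TPM + 1) scale, which is used for all fold changes and understates those of low genes, PSMB9 rose by 4.92 (SE 0.33, 95% interval 4.20 to 5.65), a 30.4-fold difference. PSMB8 rose by 3.77 (SE 0.33, 3.06 to 4.48) or 13.6-fold, and PSMB10 rose by 2.75 (SE 0.22, 2.28 to 3.22) or 6.72-fold. Among the PA28 subunits, PSME2 rose by 1.82 (SE 0.15, 1.49 to 2.14) or 3.52-fold and PSME1 by 1.68 (SE 0.15, 1.36 to 2.00) or 3.21-fold. The intervals of PSMB9 and PSMB8 overlap each other, those of PSME1 and PSME2 nearly coincide, and neither PA28 interval reaches those of the catalytic subunits. Ordered by log2 fold change over the 11878 genes tested, PSMB9 ranked 11, PSMB8 33, PSMB10 74, PSME2 173 and PSME1 195.

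With limma and Benjamini-Hochberg adjustment over all genes tested, the adjusted p was 2.89e-06 for PSMB9, 1.02e-05 for PSMB8, 6.62e-06 for PSMB10, 7.64e-06 for PSME2 and 1.31e-05 for PSME1. All 5 members were thus called higher, where 5.91% of all genes were. Their libraries did not overlap between the groups in 5 of 5 cases, a property that 20.6% of all genes had in this direction. A fit that blocked on replicate number called 1353 genes (11.4%) higher, again with all 5 members. With 3 libraries a group, exact permutation of 1 gene's values (two-sided) reaches no p below 0.1, and the calls depend on limma's pooling of the spread across genes.

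**Figure D1:**
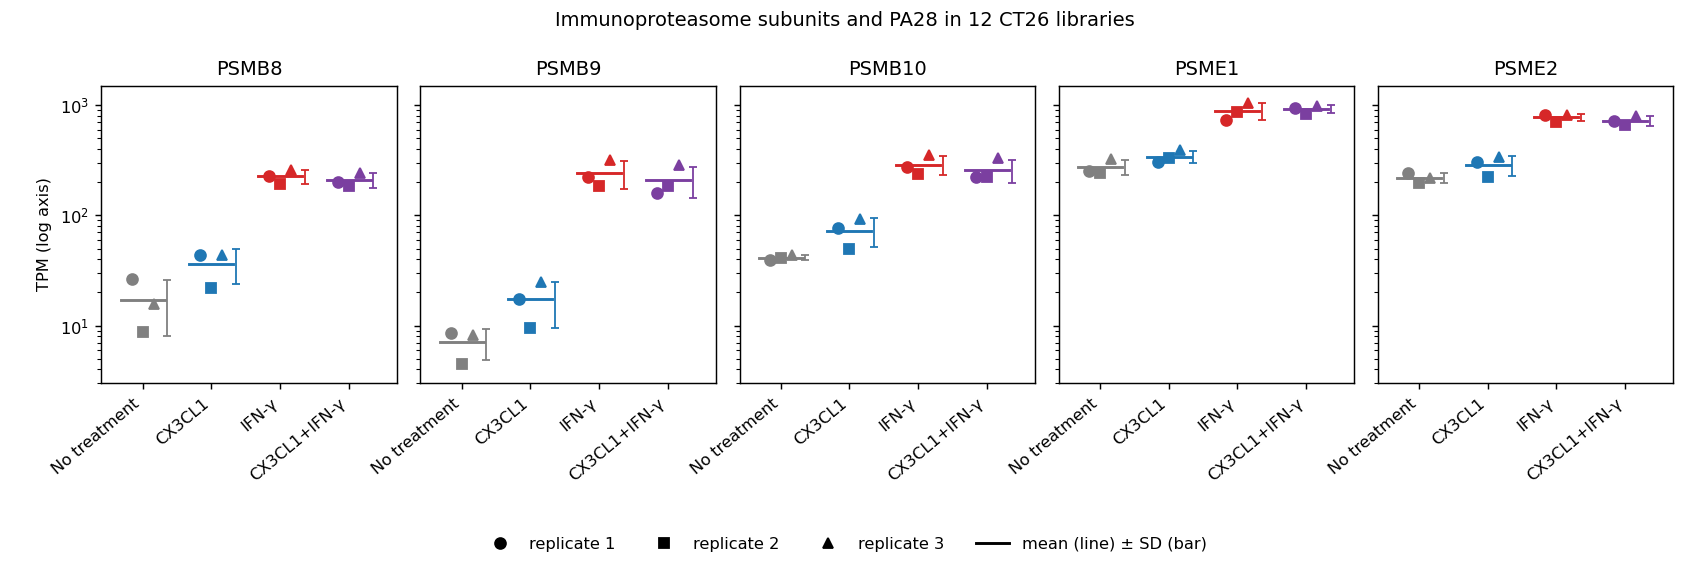
TPM of the 5 genes in each of the 12 libraries (log axis), by group, with markers for replicates 1 to 3, a line at the mean and a bar for ± SD (n = 3). Each gene sits at clearly higher levels in the 6 libraries with IFN-γ than in the 6 without it, from 244 against 7.09 TPM (group means of IFN-γ and no treatment) for PSMB9 to 882 against 274 TPM for PSME1.

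The order of the levels changed with treatment. Without treatment the mean TPM fell from PSME1 over PSME2, PSMB10 and PSMB8 to PSMB9, and the libraries of no neighbouring pair overlapped, although the highest PSMB9 library (8.56 TPM) lay just under the lowest PSMB8 library (8.83 TPM), and the highest PSME2 library (243 TPM) just under the lowest PSME1 library (245 TPM). After IFN-γ the order was PSME1, PSME2, PSMB10, PSMB9 and PSMB8. The ranges of PSME1 and PSME2 then overlapped, as did those of PSMB10, PSMB9 and PSMB8. Within libraries PSMB10 was nevertheless above PSMB9 and above PSMB8 in 3 of 3 IFN-γ libraries, whereas PSMB9 was above PSMB8 only in replicate 3, and PSME1 above PSME2 in replicates 2 and 3. These orders were not tested. The summed level of the catalytic members went from 65.5 ± 10.1 TPM to 757 ± 158 TPM and that of PA28 from 493 ± 51.1 to 1656 ± 171 TPM (SD, n = 3).

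IFN-γ also raised the 5 transcripts in cells that received CX3CL1. PSMB8 was at 43.7, 22.0 and 43.8 TPM with CX3CL1 alone (36.5 ± 12.6, n = 3) and at 199, 183 and 244 TPM with CX3CL1+IFN-γ (209 ± 31.6). PSMB9 was at 17.6, 9.43 and 24.9 TPM with CX3CL1 alone (17.3 ± 7.76) and at 159, 185 and 285 TPM with both (210 ± 66.3). PSMB10 stood at 77.0, 49.8 and 92.0 TPM against 221, 225 and 329 TPM (72.9 ± 21.4 and 258 ± 61.4). For each catalytic subunit, CX3CL1 replicate 2 was the lowest library of the CX3CL1 group, and none of the groups overlapped. PSME1 had 302, 333 and 390 TPM with CX3CL1 alone (342 ± 44.5) and 948, 838 and 977 TPM with both (921 ± 73.4). PSME2 had 306, 222 and 337 TPM with CX3CL1 alone (288 ± 59.7) and 717, 655 and 803 TPM with both (725 ± 74.3). The PA28 groups did not overlap either.

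The log2 fold change of CX3CL1+IFN-γ against CX3CL1 was 3.58 (SE 0.33) for PSMB9, 2.54 (SE 0.33) for PSMB8, 1.83 (SE 0.22) for PSMB10, 1.43 (SE 0.15) for PSME1 and 1.35 (SE 0.15) for PSME2. By limma with Benjamini-Hochberg adjustment all 5 were called higher, with adjusted p from 0.000132 (PSMB9) to 0.000714 (PSMB8), against 3.76% of all genes. All 5 had groups that did not overlap, against 14% of all genes in this direction. Without CX3CL1 replicate 2 all 5 were still called, with log2 fold changes from 1.17 (PSME2) to 3.22 (PSMB9), among 510 genes (4.29%) called higher. With the replicate block 1035 genes (8.71%) were called higher, all 5 members among them.

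The groups that differ in both cytokines, or that hold 1 cytokine each, gave the same calls, and they share libraries with the comparisons already given. CX3CL1+IFN-γ against no treatment gave log2 fold changes of 4.70 for PSMB9, 3.66 for PSMB8, 2.59 for PSMB10, 1.75 for PSME1 and 1.72 for PSME2. All 5 were called higher by limma with Benjamini-Hochberg adjustment, with adjusted p of at most 8.35e-06, against 8.21% of all genes. IFN-γ against CX3CL1 gave 3.80 for PSMB9, 2.65 for PSMB8, 1.99 for PSMB10, 1.44 for PSME2 and 1.36 for PSME1. All 5 were called higher there too, with adjusted p of at most 0.000852, against 3.52% of all genes. Without CX3CL1 replicate 2 it was again 5 of 5, among 261 genes (2.19%) called higher. With the replicate block the last comparison called 1222 genes (10.3%) higher, again with 5 of 5 members.

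CX3CL1 alone was accompanied by higher mean levels of all 5 transcripts, but none passed the test over all genes in the fit without a block. The libraries are those given above: PSMB9 and PSMB10 were higher in every CX3CL1 library than in every untreated library, while the groups of PSMB8, PSME1 and PSME2 overlapped. Groups that did not overlap in this direction made up 5.5% of all genes tested. The log2 fold change was 1.13 for PSMB9 (SE 0.33, adjusted p = 0.165 by limma with Benjamini-Hochberg adjustment), 1.12 for PSMB8 (SE 0.33, adjusted p = 0.157) and 0.76 for PSMB10 (SE 0.22, adjusted p = 0.137). It was 0.38 for PSME2 (SE 0.15, adjusted p = 0.438) and 0.32 for PSME1 (SE 0.15, adjusted p = 0.624). So 0 of 5 members were called, against 1.78% of all genes, while 4 of 5 (all but PSME1) had an unadjusted p under 0.05, as 958 of the 11878 genes did in either direction.

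The calls and the sizes of these values moved with single libraries, while all 5 log2 fold changes stayed positive whichever library was left out. Without CX3CL1 replicate 2, which had the lowest level of PSMB8, PSMB9, PSMB10 and PSME2 in its group, 4 of 5 members were called higher among 230 genes (1.93%). PSMB9 then had a log2 fold change of 1.48 (adjusted p = 0.0322 by limma), PSMB8 of 1.44 (0.0424), PSMB10 of 1.01 (0.0166) and PSME2 of 0.55 (0.0354), and PSME1 of 0.34 (0.448). Without untreated replicate 1, which had the highest untreated level of PSMB8, PSMB8 was the only member called, at 1.49 (adjusted p = 0.0207). It was among 228 genes (1.92%) called higher. Other left-out libraries lowered the values: without untreated replicate 2 the log2 fold change was 0.74 for PSMB8 (adjusted p = 0.557) and 0.87 for PSMB9 (0.601), and without CX3CL1 replicate 3 it was 0.83 for PSMB9 (0.554) and 0.57 for PSMB10 (0.491). Whether the distance of CX3CL1 replicate 2 from its group plays a part was not tested. With the replicate block and all 12 libraries, PSMB9 (adjusted p = 0.00609 by limma), PSMB10 (0.0115) and PSMB8 (0.0189) were called higher. They were among 347 genes (2.92%) so called, and the replicate numbers pair these groups only in part.

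No member was called when CX3CL1 was added to IFN-γ. The log2 fold change of CX3CL1+IFN-γ against IFN-γ was -0.22 for PSMB9 (95% interval -0.95 to 0.50), -0.11 for PSMB8 (-0.82 to 0.60) and -0.16 for PSMB10 (-0.63 to 0.31). For PA28 it was -0.09 for PSME2 (-0.42 to 0.23) and 0.07 for PSME1 (-0.25 to 0.40). The libraries of all 5 members overlapped between these groups, 0 of 5 were called by limma, and 0 had an unadjusted p under 0.05. Between libraries of the same number, PSMB8, PSMB9, PSMB10 and PSME2 were lower with both cytokines in 3 of 3 pairs. Their adjusted p ran from 0.744 (PSMB9) to 0.880 (PSMB8) by limma with the replicate block. How many of all genes were lower in every pair was not counted. PSMB9 hardly differed in replicate 2, at 185.5 TPM with IFN-γ and 184.6 TPM with both. Over all genes 0.345% were called higher, and 89 genes (0.749%) with the replicate block, none of them a member. A p that misses the threshold does not show equal levels, and the intervals leave room for a fall of PSMB9 by up to 0.95 or a rise by 0.50 on the log2 scale. These intervals come from the fit without a block. With the replicate block the SE of PSMB9 in this comparison was 0.19, which makes its interval narrower.

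**Figure D2:**
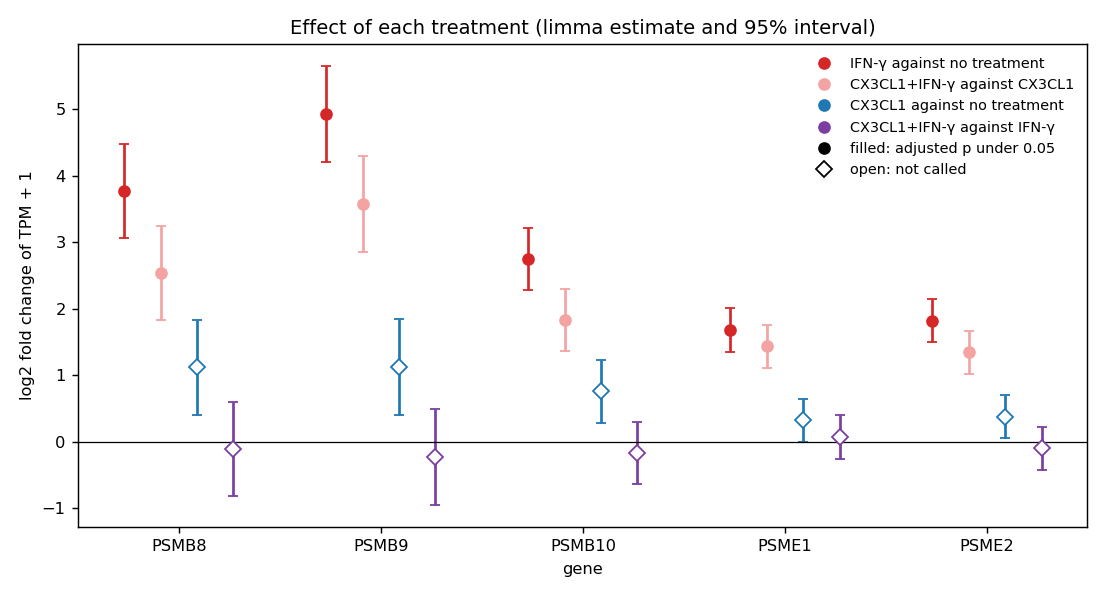
Log2 fold change of TPM + 1 for each gene in 4 comparisons, as the limma estimate (point) with its 95% interval (bar), filled where the adjusted p was under 0.05. The IFN-γ comparisons run from 1.35 to 4.92 and all are filled, CX3CL1 against no treatment runs from 0.32 to 1.13 and is open, and CX3CL1+IFN-γ against IFN-γ lies around 0.

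The interaction, which is the CX3CL1 effect in the presence of IFN-γ minus that in its absence, was negative for all 5 members. It was -1.35 for PSMB9 (SE 0.47), -1.23 for PSMB8 (SE 0.46), -0.92 for PSMB10 (SE 0.30), -0.47 for PSME2 (SE 0.21) and -0.25 for PSME1 (SE 0.21). No member and no other gene was called by limma with Benjamini-Hochberg adjustment, and the lowest adjusted p of a member was 0.994 (PSMB10). Before adjustment limma's p was under 0.05 for 273 of the 11878 genes. It was so with a negative interaction for 4 of 5 members, all but PSME1, against 1.75% of all genes. No member was called without CX3CL1 replicate 2 either. The same 12 libraries enter this contrast and the comparisons above, so it is no separate evidence of them.

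The constitutive subunits that the inducible ones replace were not called after IFN-γ. PSMB5 had a mean of 68.9 ± 7.14 TPM without treatment and 75.5 ± 3.51 TPM after IFN-γ, PSMB6 had 228 ± 27.7 and 250 ± 3.19 TPM, and PSMB7 had 557 ± 27.5 and 612 ± 13.4 TPM (SD, n = 3). Their log2 fold changes were 0.13, 0.14 and 0.14, with adjusted p of 0.660, 0.572 and 0.491 by limma. Inducible and constitutive transcripts were therefore compared within each library, as the ratio of their TPM.

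The ratio of PSMB8 to PSMB5 was 0.436, 0.117 and 0.221 without treatment and 3.13, 2.44 and 3.44 after IFN-γ (means 0.258 ± 0.163 and 3.00 ± 0.512, n = 3). With CX3CL1 alone it was 0.594, 0.437 and 0.544, and with both cytokines 3.10, 2.54 and 3.27. PSMB8 transcripts thus were the fewer in all 6 libraries without IFN-γ and the more abundant in all 6 with it. The ratio of PSMB9 to PSMB6 was 0.0382, 0.0222 and 0.0320 without treatment and 0.887, 0.750 and 1.29 after IFN-γ. It was 0.0719, 0.0506 and 0.108 with CX3CL1 alone and 0.561, 0.815 and 1.19 with both. PSMB9 came to about the level of PSMB6 with IFN-γ and exceeded it in replicate 3 of either IFN-γ group. The ratio of PSMB10 to PSMB7 was 0.0701, 0.0711 and 0.0827 without treatment, 0.130, 0.0974 and 0.152 with CX3CL1, 0.459, 0.387 and 0.561 with IFN-γ, and 0.432, 0.353 and 0.528 with both. PSMB10 stayed below PSMB7 in every library.

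Over all 12 libraries, IFN-γ raised the ratio of PSMB8 to PSMB5 by 3.11 on the log2 scale (8.66-fold), that of PSMB9 to PSMB6 by 4.23 (18.8-fold) and that of PSMB10 to PSMB7 by 2.22 (4.66-fold). In an exact two-sided permutation test that shuffled IFN-γ within the libraries with and without CX3CL1 (400 arrangements), each gave p = 0.005, the smallest value the test allows, and 0.00667 after Benjamini-Hochberg adjustment over the 4 ratios tested. Over the left-out libraries, CX3CL1 replicate 2 included, these differences ran from 2.88 to 3.35, from 4.10 to 4.37 and from 2.13 to 2.29. The ratio of PSME1 to PSME2 had group means from 1.14 to 1.27, and it differed by -0.03 with IFN-γ (exact permutation p = 0.855, adjusted 0.855). Single libraries had ratios from 0.908 to 1.50, the highest in CX3CL1 replicate 2. These ratios take the level of PSME2 as listed, although it may share reads with the similar gene PSME2B.

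**Figure D3:**
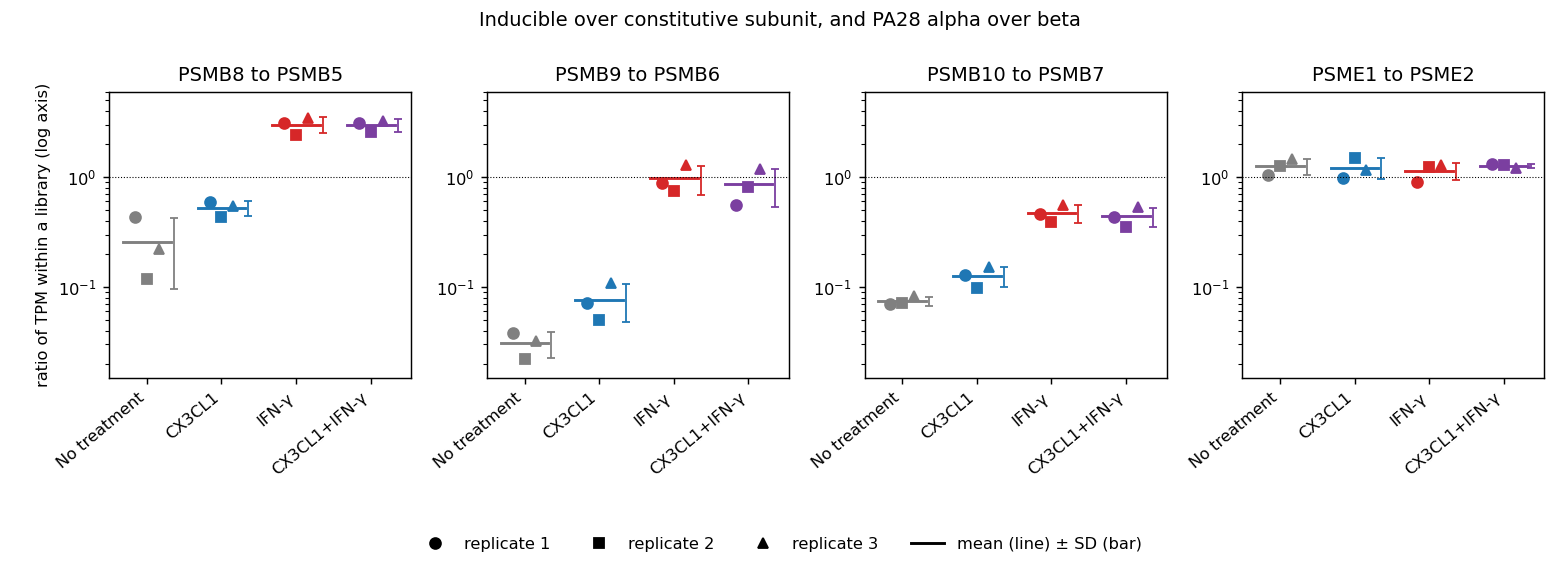
Ratio of the TPM of an inducible subunit to its constitutive counterpart, and of PSME1 to PSME2, in each library (log axis), with the mean as a line and ± SD as a bar (n = 3 a group); the dotted line marks a ratio of 1. With IFN-γ the first of these ratios lies above 1, the PSMB9 to PSMB6 ratio near 1 and the PSMB10 to PSMB7 ratio below 1, while PSME1 to PSME2 stays between 0.908 and 1.50.

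The other proteasome genes tested were not called after IFN-γ. Among them were 0 of 11 tested genes of the other 12 core subunits (median log2 fold change 0.02, largest 0.38 for PSMB4, adjusted p = 0.250 by limma). The same held for 0 of 20 genes for subunits or chaperones of the 19S cap, which recognises ubiquitin-tagged proteins (median 0.05). None of 3 other regulators was called, with 0.28 for the inhibitor PSMF1, -0.18 for the activator PSME4 (PA200) and 0.00 for PSME3 (PA28 gamma). Nor was any of 5 assembly factors, the largest being 0.48 for the chaperone PSMG4 (adjusted p = 0.0828). These counts moved with the fit, since PSMG4 and PSMF1 were called with the replicate block (adjusted p = 0.0471 and 0.0443), and PSMG4 also when only the compared libraries were fitted (0.0154) and without CX3CL1 replicate 2 (0.0275). Over all genes the median was 0.03, against 2.75 for the 5 members. PSMB11, the catalytic subunit of thymic epithelium, was at 0 TPM or under 0.015 TPM in every library and was not tested.

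After CX3CL1 alone the proteasome genes outside the members gave 1 call, PSMD10 (gankyrin), a chaperone of the 19S cap. It was 1 of 20 tested genes of the 19S list. None was called of 3 constitutive catalytic subunits, 11 other core subunits, 3 other regulators and 5 assembly factors. Of all genes 1.78% were called higher, so 1 call over these lists is near that share. Its level was 56.3, 46.3 and 54.7 TPM without treatment and 81.4, 84.7 and 75.2 TPM with CX3CL1, with no overlap. The log2 fold change was 0.61 (SE 0.11, adjusted p = 0.0104 by limma), and the call was lost without untreated replicate 2 (adjusted p = 0.0653). The call was kept without CX3CL1 replicate 2 (log2 fold change 0.57, adjusted p = 0.0316 by limma). With IFN-γ alone PSMD10 had a log2 fold change of 0.29 and was not called (adjusted p = 0.143), and with both cytokines it was 0.60 above no treatment (adjusted p = 0.00282).

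**Figure D4:**
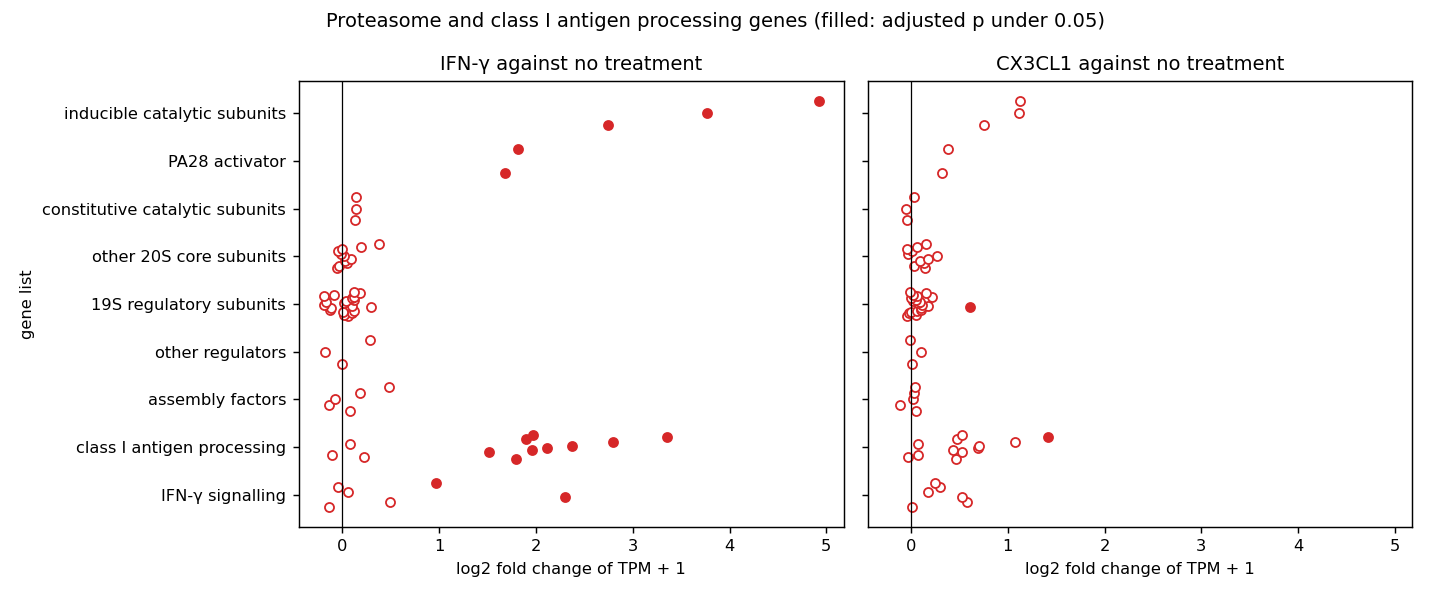
Log2 fold change of TPM + 1 for each tested gene of 9 gene lists (rows), for IFN-γ against no treatment (left) and CX3CL1 against no treatment (right); filled points had an adjusted p under 0.05. On the left the filled points belong to the 5 members, to 9 class I antigen processing genes and to 2 IFN-γ signalling genes; on the right PSMD10 and TAPBP are filled.

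The genes that load peptides on MHC class I, downstream of the proteasome, rose with IFN-γ in most cases. Of 12 such genes, 9 were called higher and the median log2 fold change was 1.93. Tapasin (TAPBP) had the largest at 3.35, followed by 2.80 for TAP1, 2.37 for NLRC5, an activator of class I genes, and 2.11 for the class I heavy chain H2-K1. The others were TAPBPL (1.97), H2-D1 (1.96), TAP2 (1.90), B2M, the class I light chain (1.80), and ERAP1, which trims peptides (1.52). The general chaperones CALR (0.23), CANX (-0.11) and PDIA3 (0.08) were not called. Adjusted p for the called genes was at most 0.00894 by limma, for TAP2. This list and the next were chosen with results of these libraries known.

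TAP1, which faces PSMB9 head to head, was at 24.6, 15.1 and 17.7 TPM without treatment, 47.0, 26.4 and 53.5 TPM with CX3CL1, 117, 118 and 183 TPM with IFN-γ and 105, 122 and 184 TPM with both. Like PSMB9 it was higher in every CX3CL1 library than in every untreated library without passing the test (log2 fold change 1.07, adjusted p = 0.0953 by limma; 0.0198 without CX3CL1 replicate 2). RefSeq places 225 bases between the 2 starts, whereas in GENCODE the transcripts overlap. The library kit kept strand, but whether counting used it is not given in the sources used here, so reads of PSMB9 and TAP1 in the shared bases may not have been told apart. The same holds for the 3′ ends of PSME1 and EMC9.

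Of 6 genes of IFN-γ signalling, 2 were called higher after IFN-γ: the transcription factor IRF1 (log2 fold change 2.31) and the inhibitor SOCS1 (0.97, adjusted p = 0.0327 by limma, and lost in 7 alternatives, among them both rescalings, leaving out any of the untreated replicates, and leaving out IFN-γ replicate 3, with adjusted p up to 0.146). The receptor chain IFNGR2 had a log2 fold change of 0.49 with no overlap between the groups and was not called (adjusted p = 0.0831), but it was called with the replicate block (0.00546) and without untreated replicate 1 (0.0302). After CX3CL1 alone none of these 6 was called in the fit without a block. Of the 12 class I antigen processing genes TAPBP was called after CX3CL1 alone. It was at 99.4, 63.6 and 63.8 TPM without treatment and at 200, 166 and 234 TPM with CX3CL1, with no overlap. The log2 fold change was 1.41 (SE 0.18, adjusted p = 0.00106 by limma), and it was called in every alternative.

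PSME2 may share reads with a similar gene. A single-exon gene of nearly the same sequence, PSME2B (chr11:48945354-48946190, minus strand), was listed at means of 48.0, 68.0, 179 and 162 TPM with no treatment, CX3CL1, IFN-γ and CX3CL1+IFN-γ. Of the windows of 100 bases along the longest PSME2 transcript, 44.5% were identical in PSME2B, whereas PSME1 and PSME2 shared none. The catalytic members were not searched in this way. Reads could thus have been split between PSME2 and PSME2B, and the levels of either are uncertain to that degree.

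The members also varied together between replicates. In all 4 groups replicate 3 had the highest level of PSMB10 and PSME1, and in the 3 treated groups that of PSMB9. In the CX3CL1 and IFN-γ groups replicate 2 had the lowest level of all members but PSME1. Over the 12 libraries, deviations from the group means of log2(TPM + 1) correlated most between PSMB9 and PSME2 (Pearson r = 0.90), PSMB9 and PSMB10 (0.88) and PSMB8 and PSME2 (0.87). They correlated least for PSME1, from 0.21 with PSMB8 to 0.52 with PSMB9. These values are a description of 12 libraries that share group, replicate number and total, and no test was made. They include CX3CL1 replicate 2 and were not computed without it. PSME1 and PSME2, which form one particle, had r = 0.27.

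Outside the members, the genes whose log2(TPM + 1) was most like the members' mean pattern over the 12 libraries were TGTP1 (Pearson r = 0.993), H2-T-PS (0.992), H2-K2 (0.991), ISG20 (0.991) and RAB5C (0.990). The 12 libraries fall into groups with and without IFN-γ, which sets these high values. Their sizes of change differed: TGTP1 went from a mean of 1.78 TPM without treatment to 88.4 TPM with IFN-γ, whereas RAB5C went from 167 to 278 TPM. With CX3CL1 alone TGTP1 had a mean of 5.67 TPM and RAB5C of 179 TPM.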

How the data were processed

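The values are TPM, deposited by the authors as 1 table of gene symbols and 12 libraries. Strand-specific mRNA libraries were made, and reads were aligned to mm10 and counted per gene by the authors with STAR 2.7.3a in the VIPER pipeline; DESeq2 1.22.1 is also named in the submitters' processing notes. How counts became TPM, the annotation and the treatment of shared reads are not given in the sources used here. TPM keep no depth, so precision comes from the spread between replicates. Of 23636 symbols, 6747 were at 0 in every library and 26 had been turned into dates.

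Here, limma 3.58.1 in R 4.3.3 (lmFit, eBayes with an intensity trend) was fitted to log2(TPM + 1), pseudocount 1, with all 12 libraries and those 11878 genes whose mean TPM was 0.2 or more. The contrasts, 7 in all, were tested with Benjamini-Hochberg adjustment within each and a threshold of 0.05. The script was tested on simulated data. Ratios were tested by exact permutation, and motifs were searched with Python 3.11.15 and pandas 2.3.3.

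The named genes are the 5 members, the called genes and 3 largest IFN-γ changes of each list, and the 5 genes most correlated with the members. PSMD10, the neighbours and PSME2B were chosen after their values were seen. The members and lists were chosen with earlier results of these data known. Same-numbered libraries deviated together for IFN-γ and no treatment (r = 0.43, 0.46 and 0.22 over genes), CX3CL1 and IFN-γ (0.58, 0.36 and 0.23), CX3CL1 and CX3CL1+IFN-γ (0.35, 0.35 and 0.43), and IFN-γ and CX3CL1+IFN-γ (0.63, 0.64 and 0.65), which are taken as pairs. This pairing rests on the data, since the labels do not say what a number shares. The main fit has no block, so its SE, intervals and adjusted p do not use the pairs. As alternatives, the pseudocount was set to 0.1, the filter was dropped or raised to a mean of 1 TPM, libraries were rescaled by median ratios or by quantiles, the fit was run without the trend, on the compared groups alone, with the replicate block, and without each library in turn. A gene of the IFN-γ signalling list is not reported here.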

Additional observations from a re-analysis of the deposited data

How the results depend on the processing

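Under every alternative and every left-out library, 5 of 5 members were called in the comparisons with IFN-γ on 1 side and 0 of 5 in CX3CL1+IFN-γ against IFN-γ and in the interaction. The count moved only for CX3CL1 against no treatment, where it was 0 and ran from 0 to 4 over the left-out libraries. For that comparison the replicate numbers paired the libraries only in part (correlations 0.387, 0.005 and 0.301). Replicates 1 and 3 correlated best with their own number and replicate 2 did not. For no treatment and CX3CL1+IFN-γ (0.312, 0.447 and 0.032) replicate 3 did not. With the replicate block, CX3CL1 against no treatment had 347 genes (2.92%) called higher. Among them were 3 members (PSMB9 adjusted p = 0.00609, PSMB10 0.0115 and PSMB8 0.0189 by limma) and IFNGR2 (0.00559). No member was called in the interaction with the block (lowest adjusted p 0.0735, PSMB9). The block changed no other call of a member, and the ratios gave the same values. For the ratios it was another exact permutation test, which flipped the signs of the differences between same-numbered libraries with and without IFN-γ. Its p was 0.031 for each inducible ratio, the smallest value that test allows, and 0.844 for PSME1 to PSME2. The block on the ratios was chosen after seeing the data.

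Leaving out 1 library moved the log2 ratio of PSME1 to PSME2 between -0.095 and 0.056, the fold change of PSME1 in CX3CL1+IFN-γ against IFN-γ between -0.051 and 0.20, and that of PSME3 after IFN-γ between -0.026 and 0.023, so their signs are not settled. Over all genes the number called higher and lower after IFN-γ was 702 and 230, with the block 1353 and 576, and 429 to 998 and 99 to 501 over left-out libraries. With CX3CL1 alone it was 212 and 20, 347 and 108, and 144 to 230 and 8 to 38. For CX3CL1+IFN-γ against CX3CL1 it was 447 and 111, 1035 and 334, and 220 to 510 and 48 to 157, and against IFN-γ it was 41 and 2, 89 and 6, and 15 to 52 and 1 to 2. For CX3CL1+IFN-γ against no treatment it was 975 and 442, 1578 and 886, and 684 to 1228 and 236 to 664. For IFN-γ against CX3CL1 it was 418 and 126, 1222 and 379, and 136 to 451 and 49 to 132, and in the interaction 0 and 0, 3 and 49, and 0 to 1 and 0 to 11. Scaling moved the share of calls that were higher: after IFN-γ it was 75.3%, 64.8% by median-ratio scaling and 50.9% by quantile normalization; for CX3CL1+IFN-γ against CX3CL1 80.1%, 66.1% and 60.5%; for IFN-γ against CX3CL1 76.8%, 56.0% and 54.1%; and for CX3CL1+IFN-γ against no treatment 68.8%, 61.9% and 47.3%. The cause of these shifts was not tested.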
